A study of Mus musculus with 4 samples.

Results

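Endothelial cells of the testis were studied in 1 droplet single-cell RNA library of mouse testis cells, labelled Znhit1_KO and taken at postnatal day 35. The barcodes were selected on their own expression values. A barcode was counted as endothelial when it held at least 4 UMIs (unique molecular identifiers, each standing for 1 captured RNA molecule) summed over Pecam1, Cdh5, Egfl7, Kdr, Esam and Tek. It also had to hold at most 3 UMIs of the germ cell genes Ddx4 and Dazl and less than 1% of its UMIs in the contractile genes Acta2, Myh11, Tagln and Myl9. All barcodes had to reach 1000 UMIs and 500 genes, with at most 10% mitochondrial UMIs. The rule found 64 of 8121 such barcodes, or 0.788% (95% Clopper-Pearson interval 0.607 to 1.01%). The study holds 4 libraries, 1 each for Znhit1_KO at days 16 and 35 and for CTRL at days 16 and 35. For the 3 remaining libraries only barcodes were compared, and their counts were not used. Znhit1 encodes a subunit of the SRCAP complex, which deposits the histone variant H2A.Z. The labels do not give the strain, the cells in which Znhit1 was removed or the number of animals.

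Endothelial cells line every blood and lymph vessel. In the testis the vessels run through the interstitium between the seminiferous tubules, and the tubules themselves hold none, so oxygen, nutrients and hormones cross the interstitium to reach germ cells. Testicular endothelial cells receive VEGF and angiopoietin signals through tyrosine kinase receptors, recruit pericytes with PDGF-B, and have been reported to secrete growth factors that maintain spermatogonial stem cells. The endothelium of testis capillaries also carries drug efflux pumps, as that of the brain does.

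With 1 library there is no replicate of any group, so no difference was tested. Counts were summed over barcodes and given as counts per 1000000 UMIs (CPM) with exact 95% intervals, which cover counting error only. The 64 endothelial members held 316718 UMIs together, with 1056 in the shallowest, a median of 4043.5 and 12386 in the deepest, and 1 UMI in all of them equals 3.16 CPM. The other 8057 barcodes had a median of 4694 UMIs. Mitochondrial RNA took a median of 3.80% of UMIs in members and 6.40% in the others. Scrublet, which calls doublets by simulation, marked 265 of the 8121 barcodes (3.26%) and none of the 64 members. Between 45 and 81 barcodes were shared by each pair of libraries, and 3 members had a barcode that occurs in another library.

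Members were set beside 7 classes rebuilt by clustering in which no gene of any list used here took part. These were 903 Leydig-like, 249 interstitial stroma-like, 605 peritubular myoid-like, 66 pericyte-like, 474 macrophage-like and 182 Sertoli-like barcodes, and 4140 barcodes of otherwise unnamed clusters with more than 3 UMIs of Ddx4 and Dazl, called germ-marker barcodes. The names rest on these rebuilt clusters, since no annotation by the authors was used. Most of the other barcodes are germ cells by these markers, so levels were also compared with the 3629 other barcodes that held at most 3 germ UMIs. A gene was measured when it had 10 UMIs in members or would have had 10 there at the level of the others. A measured gene was called higher or lower when the 2 levels differed at least 2-fold.

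The endothelial label held for most members. Marker UMIs ran from 4 through a median of 12.5 to 45 per member, and 57 of 64 members held at least 3 of the 6 rule genes. The clustering, which had not seen the rule genes, put 54 of the 64 members into 1 cluster of 71 barcodes. Of the remaining 17 barcodes of that cluster, 14 had fewer than 4 marker UMIs and 3 exceeded the germ limit, and their median depth was 1498 UMIs. The 54 cluster members held 4 to 29 of 30 further endothelial identity genes, with a median of 16.5. The 10 members in other clusters held 0 to 21, with a median of 2.5. Of these 10, 4 lay in the Leydig-like cluster, 4 in a shallow cluster without a name, 1 in the peritubular myoid-like cluster and 1 in a macrophage-like cluster. All 5 members with a single rule gene were among these 10, so the label is doubtful for them. It is also uncertain for the others of the 10. In the shallow cluster, 1 held 8 Kdr UMIs of 9 marker UMIs and 4 identity genes, and 1 held 2 identity genes. The others in the Leydig-like cluster held 7, 14 and 21 identity genes beside Leydig markers, given below. Whether these barcodes mix RNA of more than 1 cell was not tested beyond the doublet calls.

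Near the limits, 5 members had exactly 4 marker UMIs, of which 2 lay in the endothelial cluster. Just outside, 4 barcodes had 3 marker UMIs, of which 3 lay in that cluster, and their median depth was 1768 UMIs against 2861 in the 5 members. A further 12 barcodes met the rule but for 5 to 37 germ UMIs, and 4 but for the contractile limit, 3 of them in the pericyte-like cluster.

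**Figure D1:**
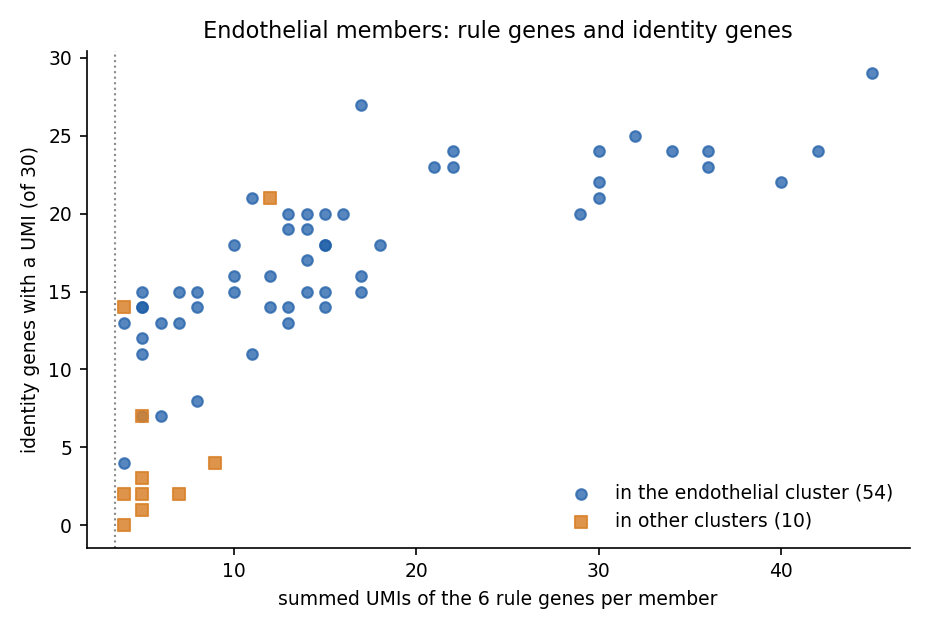
Summed UMIs of the 6 rule genes (x axis) and number of the 30 identity genes with a UMI (y axis) for each of the 64 members, with the 54 in the endothelial cluster as circles and the 10 in other clusters as squares; the dotted line marks the rule's limit. The circles reach 45 marker UMIs and 29 identity genes, while 8 of the 10 squares hold fewer than 8 identity genes.

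Markers of other cell types had UMIs in members. Summed markers per 10000 UMIs had medians over members of 6.68 for Leydig cells (range 0 to 267), 25.8 for Sertoli cells (8.50 to 85.1), 6.46 for germ cells (0 to 47.3) and 2.21 for macrophages (0 to 800). Other classes held such markers too. Summed Sertoli markers were at 2715 CPM in members, 2960 in myoid-like, 2671 in macrophage-like and 14847 in Sertoli-like barcodes. Summed germ markers were at 745 CPM in members, 957 in myoid-like and 10629 in germ-marker barcodes. Of 10 measured Sertoli markers, 1 was higher in members than in all others and 1 lower. Wt1 held 103 UMIs in members, 90 of them in 40 cluster members. The highest Leydig values, 267, 242 and 86.5, came from members in the Leydig-like cluster with 4, 5 and 3 rule genes. The highest macrophage value came from the member in the macrophage-like cluster, which held 4 Egfl7 UMIs and none of the identity genes. At 0 in all members were Amh of 14 Sertoli markers, Crabp1 and Esx1 of 16 germ markers, Actg2 and Des of 10 smooth muscle markers and 11 of 13 lymphocyte markers, Ptprc included. None of the 11 Leydig and 13 macrophage markers was at 0. The part of this RNA in the levels below was not tested, but where most of a named gene's UMIs lay in the 10 members outside the endothelial cluster, their number is given beside its level.

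Against all other barcodes, 19.0% of 7350 measured genes were called higher in members and 28.9% were called lower. The median log2 ratio over all of these genes was -0.35. Against other non-germ barcodes these shares were 15.5% and 14.7% of 6588 genes, with a median of -0.01. Of 9686 genes, 3.43% were at least 2-fold above the highest of the 7 other classes. The members and lists were chosen with results of these data known, so list counts are descriptions to be read beside these shares.

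All 29 measured genes of the endothelial identity list, which leaves out the rule genes, were higher in members than in the others, where 19.0% of all measured genes were, with a median log2 ratio of 6.77. Of these 29, 23 were at least 2-fold above every other class, against 3.43% of all genes. Cldn5, the main tight junction claudin of endothelium, had 0 UMIs in the lowest member, a median of 11.5 and 63 in the highest. Its level was 3341 CPM (3142 to 3548) in members and 5.71 CPM in all others, a ratio of 585 (514 to 669). A Cldn5 UMI occurred in 87.5% of members (76.8 to 94.4%) against 1.47% of germ-marker barcodes, at median depths of 4043.5 and 5727.5 UMIs. Of the 8 members without one, 1 lay in the endothelial cluster and 7 outside it. Ptprb, a phosphatase that restrains TEK signalling and stands on the angiopoietin list too, reached 805 CPM in members, a ratio of 268 (219 to 330) to the others. Emcn, a surface sialomucin, reached 461 CPM in members, 72.3 CPM in pericyte-like barcodes and 1.39 CPM in all others. Myct1 had the largest ratio of the list, at 651 (409 to 1077).

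Not every identity gene was highest in members by a wide margin. Tm4sf1 was at 821 CPM in members and 949 CPM in pericyte-like barcodes, a ratio of 0.865 (0.716 to 1.05). Cav1, which forms caveolae, was at 215 CPM in members and 313 CPM in pericyte-like barcodes. Cd34, also known from stromal progenitors, was at 467 CPM in members and 328 CPM in stroma-like barcodes. Exoc3l2 had the lowest ratio of the list, 3.53 (2.15 to 5.48), and was at 63.1 CPM in members and 54.7 CPM in Sertoli-like barcodes. Plvap, which forms the diaphragms of fenestrated endothelium, had no UMI in any of the 64 members and was at 1.75 CPM in the others. A floor of 3 counts over the members would equal 9.47 CPM.

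Upstream sequences of the identity genes were read for letters of the ETS factor core, as ETS factors are known to act on many endothelial genes. Whether they act on these genes here was not tested. RefSeq promoters (GRCm38.p6) were at hand for 19 of the 30 genes, and the 250 bases before the start were searched on both strands. CAGGAA occurred in 12 of 19 (63.2%) against 25.4% of 27025 promoters. The variant CCGGAA occurred in 2 of 19 (10.5%) against 12.2%, the SOX motif AACAAT in 2 (10.5%) against 9.65%, the GATA motif AGATAA in 2 (10.5%) against 10.3%, and the E-box CACGTG in 0 against 6.05%. Among 19 of the 25 barrier transporter genes, CAGGAA occurred in 4 (21.1%), CCGGAA in 2 (10.5%), AACAAT in 1 (5.26%) and AGATAA in 0. The E-box CACGTG occurred in 4 of these 19 (21.1%) against 6.05% of all promoters. CAGGAA and CCGGAA share the letters GGAA, and a match is only a match of letters. Shown here are Cd34 and Emcn, the carriers of CAGGAA with the highest levels in members, Adgrf5, which ties with Myct1 for the next place and holds 2 copies where Myct1 holds 1, and Cldn5, which has the highest level of the list and holds neither ETS core. Sequences run 5′ to 3′ and capitals mark CAGGAA or its reverse complement TTCCTG.
Cd34 promoter, chr1:194938571-194938820, plus strand: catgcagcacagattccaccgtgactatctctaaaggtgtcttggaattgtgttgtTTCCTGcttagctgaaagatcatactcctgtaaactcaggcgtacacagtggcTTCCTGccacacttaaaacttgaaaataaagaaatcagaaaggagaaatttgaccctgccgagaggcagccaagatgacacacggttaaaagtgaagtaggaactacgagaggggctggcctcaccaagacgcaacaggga
Emcn promoter, chr3:137340828-137341077, plus strand: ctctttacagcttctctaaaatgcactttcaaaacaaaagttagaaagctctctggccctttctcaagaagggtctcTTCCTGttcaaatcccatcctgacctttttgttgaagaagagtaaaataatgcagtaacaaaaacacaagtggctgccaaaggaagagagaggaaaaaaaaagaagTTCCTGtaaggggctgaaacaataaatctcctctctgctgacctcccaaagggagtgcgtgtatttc
Adgrf5 promoter, chr17:43360181-43360430, plus strand: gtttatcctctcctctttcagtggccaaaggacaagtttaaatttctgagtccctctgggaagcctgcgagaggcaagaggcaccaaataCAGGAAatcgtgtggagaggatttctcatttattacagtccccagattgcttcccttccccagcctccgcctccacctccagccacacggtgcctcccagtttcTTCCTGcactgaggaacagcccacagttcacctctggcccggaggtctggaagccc
Cldn5 promoter, chr16:18776597-18776846, plus strand: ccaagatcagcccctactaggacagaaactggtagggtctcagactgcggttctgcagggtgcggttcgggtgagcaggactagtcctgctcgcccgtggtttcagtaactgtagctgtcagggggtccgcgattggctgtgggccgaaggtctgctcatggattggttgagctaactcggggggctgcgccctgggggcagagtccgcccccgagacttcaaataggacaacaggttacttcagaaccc
Cd34, Emcn and Adgrf5 hold 2 copies each. In Emcn the nearer one starts 67 bases before the gene start, in Adgrf5 56 bases and in Cd34 141 bases. The 3 genes were at 467, 461 and 294 CPM in members against 13.7, 1.39 and 2.16 CPM in the others.

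Of 23 measured transcription factors known from endothelium, 22 were higher in members and none lower, with a median log2 ratio of 4.45. The SOXF factors, which specify arteries and vessel integrity, reached 376 CPM (Sox17), 281 CPM (Sox18) and 63.1 CPM (Sox7) in members, with ratios of 383, 139 and 179 to the others. Mecom, which maintains arterial identity, was at 398 CPM in members and 3.33 CPM in the others. Epas1, the hypoxia-inducible factor of endothelium, was at 603 CPM in members and 226 CPM in pericyte-like barcodes, the next class. Of the ETS family, Erg was at 158 CPM, Fli1 at 369 CPM, Ets1 at 306 CPM and Elk3 at 177 CPM in members. Fli1 exceeded macrophage-like barcodes only by a ratio of 1.65 (1.33 to 2.04). Klf2, induced by blood flow, had 1718 CPM in members and 1296 CPM in macrophage-like barcodes. Foxo1 was the gene within 2-fold, at 88.4 CPM in members and 47.1 CPM in the others. Etv2, which acts in embryonic vessel formation, Foxc2 and Meox2 had no UMI in members.

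Of 9 measured genes of the VEGF list, 8 were higher in members and none lower. Against non-germ barcodes 6 of 11 were higher and 3 lower. The receptor Flt1 was far above its level in every other class, while some ligands were higher elsewhere. Flt1, the decoy VEGF receptor, was at 594 CPM (512 to 685) in members and at most 3.88 CPM in any other class. Its UMIs per member ran from 0 to 15, and 46 of 64 members held one. Kdr was used by the rule and was at 341 CPM. Vegfa was low in members, at 47.4 CPM (26.5 to 78.1), and at 16.7 CPM in Leydig-like barcodes. Vegfd was at 22.1 CPM in members, with 6 of 7 UMIs outside the cluster, and 208 CPM in Leydig-like barcodes. Vegfc was at 158 CPM in members, from 50 UMIs in only 12 of them, and at most 4.22 CPM elsewhere. Of the lymphatic VEGF-C receptor Flt4, members held 7 UMIs.

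Tie1, the partner of the angiopoietin receptor TEK, was at 142 CPM in members and at most 0.375 CPM in the other classes. Angpt1, the ligand that activates TEK, was at 44.2 CPM (24.2 to 74.2) in members and 101 CPM in pericyte-like barcodes. Its antagonist Angpt2 was at 6.31 CPM, from 2 UMIs, in members and 53.0 CPM in pericyte-like barcodes. Grb14, an adaptor protein, had the lowest ratio of the 4 measured genes of this list, all higher in members, at 2.52 (1.55 to 3.87). For PDGF the ligand was on the members' side. Pdgfb, the ligand by which endothelium holds pericytes, was at 278 CPM (223 to 342) in members, 54.3 CPM in macrophage-like and 14.5 CPM in pericyte-like barcodes. Its receptor Pdgfrb was at 6.31 CPM in members and 438 CPM in pericyte-like barcodes. The members' 2 Pdgfrb UMIs came from 1 barcode.

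Of the Notch pathway, 9 of 10 measured genes were higher in members and none lower. Dll4, the ligand of arteries and sprouts, was at 139 CPM in members, from 44 UMIs in 22 of them, and at most 0.719 CPM in other classes. Rbpj, the DNA-binding partner of Notch receptors, was the gene within 2-fold, at 53.7 CPM in members and 100 CPM in the others. Notch1 was at 164 CPM in members and 57.8 CPM in pericyte-like barcodes. Notch4 was at 31.6 CPM in members and 11.2 CPM in myoid-like barcodes. Notch3, the receptor of mural cells, was at 6.31 CPM in members and 453 CPM in pericyte-like barcodes. The targets Hes1 and Hey1 were at 249 and 41.0 CPM in members against 36.1 and 2.53 CPM in all others. Hes1 was higher in pericyte-like barcodes, at 491 CPM.

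Of 16 measured genes of the BMP and TGF beta list, 12 were higher and 2 lower. Id1 and Id3, direct targets of BMP receptors, were at 1156 and 1241 CPM in members against 32.3 and 73.2 CPM in the others. Id3 was not above stroma-like barcodes, at a ratio of 0.912 (0.807 to 1.03). Eng, the coreceptor of ALK1, was at 417 CPM and Acvrl1, which encodes ALK1, at 66.3 CPM in members. Gdf2 and Bmp10, the circulating ligands of ALK1, had no UMI in members. Lower in members were Tgfbr1, with a ratio of 0.203 (0.0878 to 0.401), and Bmpr1a, with 0.346 (0.166 to 0.637), where 8 of 10 UMIs lay outside the cluster. Against non-germ barcodes 12 of 16 were higher and 2 lower.

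All 10 measured vasoactive genes were higher in members than in all others. Against non-germ barcodes 7 of 12 were higher and 1 lower. Ramp2 and Calcrl, which together form the adrenomedullin receptor, were at 818 and 196 CPM in members against 12.6 and 4.57 CPM in the others. Adm itself had 3 UMIs. Ptgs1, a cyclooxygenase of prostaglandin synthesis, had the largest ratio, at 69.5 CPM in members and 0.392 CPM in the others. Gucy1a1, a subunit of the nitric oxide receptor, had the smallest, at 37.9 CPM in members and 15.1 CPM in the others, with 520 CPM in pericyte-like barcodes. Nos3, the endothelial nitric oxide synthase, was at 53.7 CPM in members and 1.61 CPM in the others. Edn1, the precursor of the vasoconstrictor endothelin, was at 126 CPM (90.2 to 172) in members and 171 CPM in Sertoli-like barcodes. Its receptors lay elsewhere: Ednra was at 9.47 CPM in members, with all 3 UMIs outside the cluster, and 219 CPM in myoid-like barcodes, and Ednrb at 12.6 CPM in members and 111 CPM in pericyte-like barcodes.

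Of 12 measured genes of the chemokine, apelin and PDGF axes, 8 were higher and 1, Pdgfa, was lower, and relative to non-germ barcodes 8 of 12 were higher and 3 lower. Cxcl12, a chemokine that guides leukocytes and stem cells, was at 436 CPM (366 to 515) in members and 325 CPM in stroma-like barcodes. Ackr3, its scavenging receptor, was at 196 CPM in members and 21.4 CPM in myoid-like barcodes. The signalling receptor Cxcr4 had 1 UMI in members. S1pr1, a sphingosine phosphate receptor, was at 164 CPM in members and 35.6 CPM in macrophage-like barcodes.

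**Figure D2:**
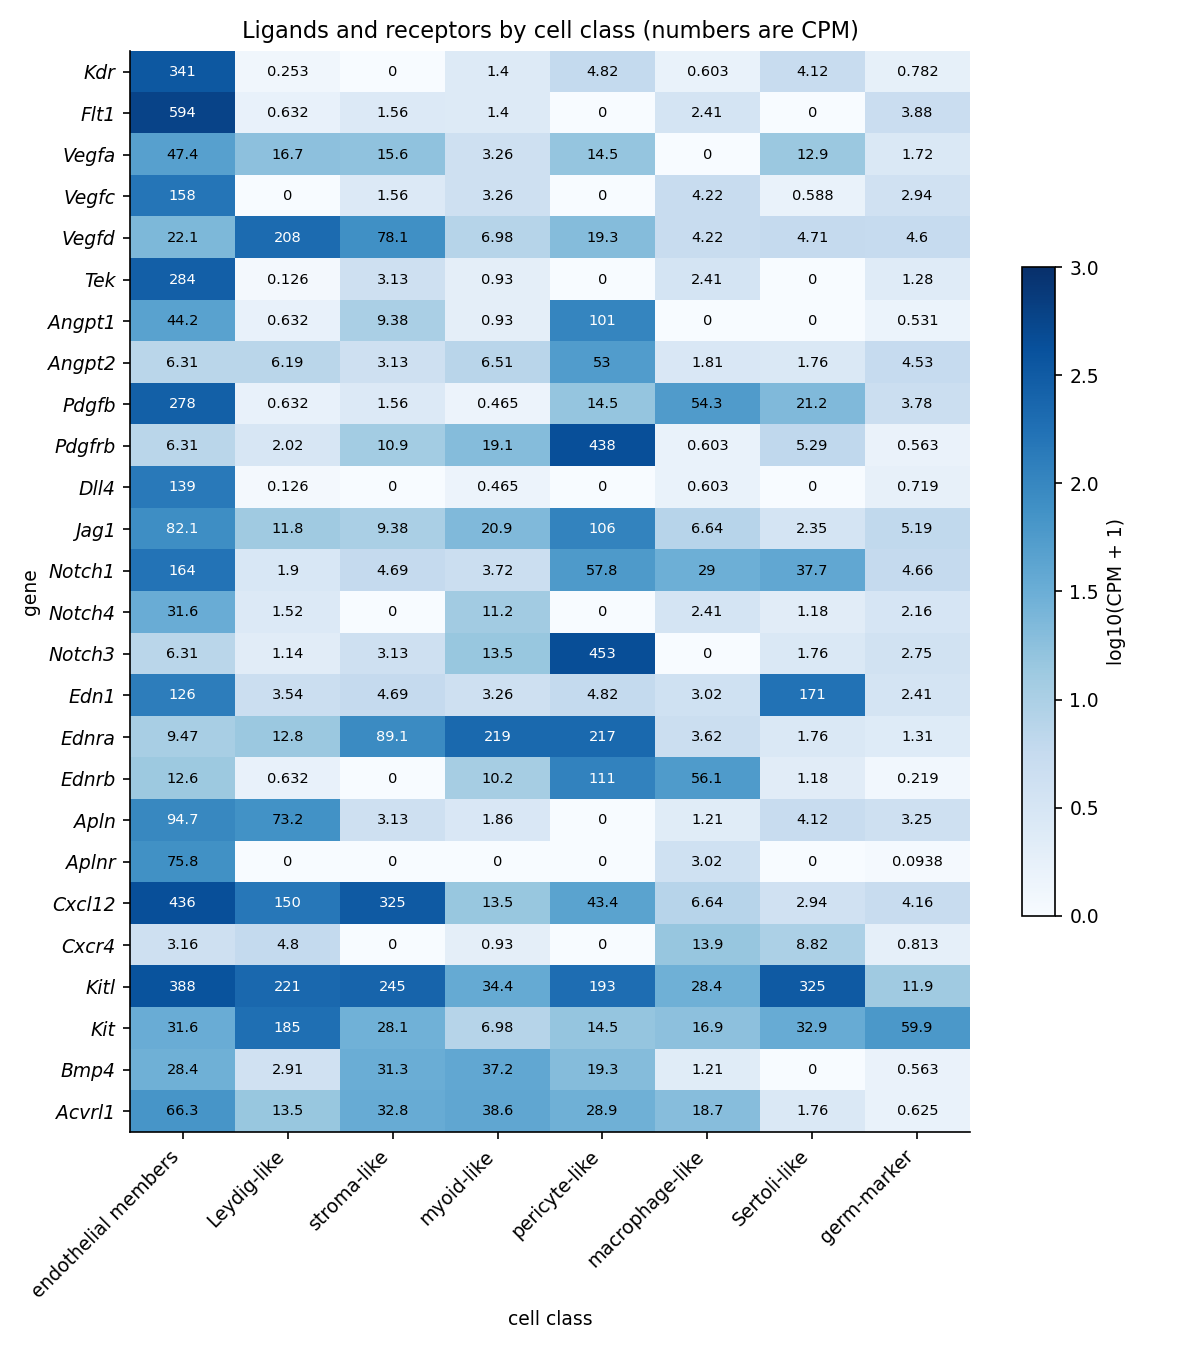
Summed levels in CPM (numbers, with colour as log10 of CPM plus 1) of ligands and receptors (rows) in the endothelial members and in the 7 other classes (columns). Flt1, Dll4 and Aplnr stand out in the members' column, as do Kdr and Tek, which the selection of members fixed, while Pdgfrb, Notch3, Angpt1 and Ednrb stand out in the pericyte-like column.

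Several drug and nutrient transporters known from the blood-brain barrier were far above the other classes. Of 16 measured on this list, 11 were higher than in all others and 1 lower, with a median log2 ratio of 3.06, and 9 of 21 were at least 2-fold above every other class. Relative to non-germ barcodes 10 of 17 were higher and 4 lower. Abcb1a, which encodes the efflux pump P-glycoprotein, had 0 UMIs in the lowest member, a median of 2 and 15 in the highest. Its level was 647 CPM (562 to 742) in members and 1.14 CPM in the others, a ratio of 569 (423 to 775). A UMI of it occurred in 73.4% of members against 0.362% of germ-marker barcodes. After thinning each barcode to 1000 UMIs these shares were 43.8% and 0.0483%. The other efflux pump of the barrier, Abcg2, was at 565 CPM in members and 72.3 CPM in pericyte-like barcodes, a ratio of 7.82 (4.62 to 14.3). Slco1a4, an organic anion carrier, was at 344 CPM in members and at most 4.71 CPM in other classes.

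Mfsd2a, counted with the junction genes, a lipid carrier that restrains transcytosis in brain vessels, was at 366 CPM (303 to 439) in members and 12.4 CPM in Sertoli-like barcodes. Its 116 UMIs all lay in cluster members, in 32 of the 54, with at most 12 in 1 member. Slc7a5 and Slc3a2, the chains of the large neutral amino acid carrier, were at 1484 and 1048 CPM in members against 167 and 306 CPM in the others. In Leydig-like barcodes they were at 452 and 932 CPM. The glucose carrier Slc2a1 was at 91.6 CPM (61.3 to 132) in members and 17.6 CPM in Sertoli-like barcodes. Tfrc, the transferrin receptor, was lower in members, at 9.47 CPM against 44.9 CPM in the others. Slco1c1, the thyroid hormone carrier of brain vessels, had no UMI in members, and Abcb1b, the paralogue of Abcb1a, had 1.

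Abca1, a cholesterol exporter, was not higher in members than in the others. It was at 212 CPM in members, 1007 CPM in Leydig-like barcodes and 229 CPM in all others, and 38 of its 67 UMIs came from the 10 members outside the endothelial cluster.

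Of 19 measured junction genes, 15 were higher and 2 lower, and relative to non-germ barcodes 14 of 20 were higher and none lower. Several of these were at similar levels in members and in Sertoli-like barcodes, which build the blood-testis barrier. The zonula occludens gene Tjp1 was at 388 CPM in members and 335 CPM in Sertoli-like barcodes, a ratio of 1.16 (0.947 to 1.41). F11r, which encodes JAM-A, was at 199 CPM in members and 189 CPM in Sertoli-like barcodes. Jam2 was at 152 CPM in members and 131 CPM in Sertoli-like barcodes. Cldn11, the claudin of Sertoli cells, was at 50.5 CPM in members and 514 CPM in Sertoli-like barcodes, and 12 of its 16 UMIs came from members outside the endothelial cluster. Gjc1, the gap junction gene of mural cells, had the lowest ratio, 0.199 (0.0729 to 0.433).

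**Figure D3:**
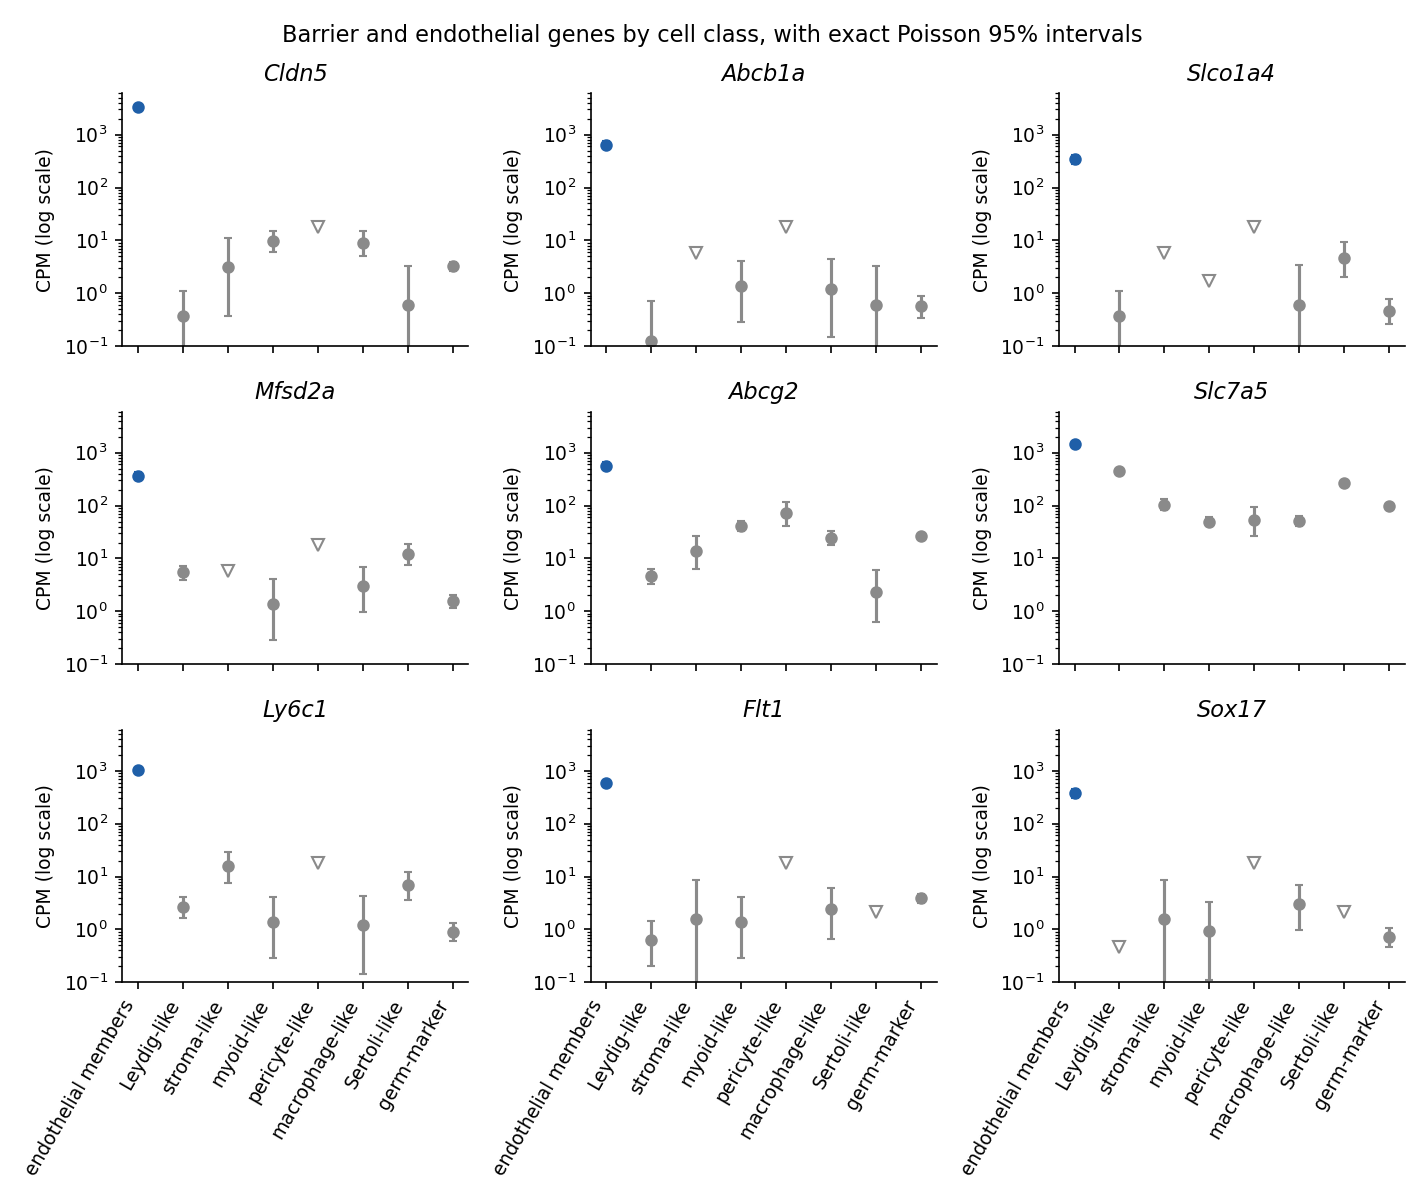
Levels in CPM (log scale) of 9 genes in the endothelial members (left, blue) and 7 other classes (grey), with exact Poisson 95% intervals; open triangles give the upper bound where a class had no UMI. Cldn5, Abcb1a, Slco1a4, Ly6c1, Flt1 and Sox17 are highest in members by ratios of 66.1 or more, while Slc7a5 in Leydig-like barcodes comes within a ratio of 3.28.

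All 10 measured genes of the arterial list were higher in members, though Gja4 was at 85.2 CPM in members and 414 CPM in pericyte-like barcodes. Fbln5, an elastic fibre protein, was at 47.4 CPM in members and 249 CPM in myoid-like barcodes. Of the venous list, 5 of 7 measured genes were higher and 1 lower, and relative to non-germ barcodes 4 of 8 were higher and 3 lower. Vwf, stored in endothelial granules, was at 309 CPM in members, in 36 of 64, and 2.55 CPM in the others. Tmem252 and the apelin receptor Aplnr were at 69.5 and 75.8 CPM in members against 0.177 and 0.275 CPM. The venous regulator Nr2f2 was at 114 CPM in members and 771 CPM in pericyte-like barcodes, and Ackr1, a marker of venules, had 1 UMI. Vcam1 was at 221 CPM in members and 2266 CPM in Leydig-like barcodes, and 62 of its 70 UMIs came from the 10 members outside the cluster.

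Of the capillary list, 6 of 10 were higher and 1 lower, and relative to non-germ barcodes 6 of 11 were higher and 3 lower. Car4, the carbonic anhydrase anchored on capillary surfaces, was at 227 CPM (178 to 286) in members and at most 0.603 CPM in other classes. Rgcc was at 221 CPM in members and 61.2 CPM in Sertoli-like barcodes. Slc9a3r2, a scaffold protein, had the highest level of the list, 587 CPM (506 to 678) in members and 173 CPM in pericyte-like barcodes. The lower one was the fatty acid carrier Fabp5, at 53.7 CPM in members, with 9 of 17 UMIs outside the cluster, and 120 CPM in the others. Genes of fatty acid uptake were higher in other classes. Fabp4, a fatty acid carrier, was at 6.31 CPM in members, from 2 UMIs in 1 of them, and 814 CPM in pericyte-like barcodes. Cd36 was at 34.7 CPM in members and 324 CPM in Leydig-like barcodes, with 9 of 11 UMIs outside the cluster, and Gpihbp1 had 4 UMIs.

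Of the lymphatic list, 3 of 11 genes could be measured, with 1 higher and 2 lower, and relative to non-germ barcodes none of 3 was higher and 1 lower. Of the 11, 4 (Lyve1, Ccl21a, Mmrn1 and Nts) had no UMI in members and Prox1, the lymphatic master regulator, had 3. Reln, the lowest by ratio, had 1 UMI. Stab1, a scavenger receptor, was at 53.7 CPM in members and 543 CPM in macrophage-like barcodes. Of the sprouting list, 4 of 7 measured genes were higher and none lower, while Esm1, a tip cell marker, had 6 UMIs, 5 of them in 1 member, and Angpt2 had 2. Marcksl1, the lowest of this list by ratio, was at 189 CPM in members and 241 CPM in the others.

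Of 6 measured leukocyte adhesion genes, 4 were higher and 2 lower, and relative to non-germ barcodes 3 of 6 were higher and 2 lower. Alcam had the lowest ratio, 0.183 (0.0497 to 0.468). Icam2, a constitutive leukocyte ligand, was at 177 CPM in members and 2.91 CPM in Leydig-like barcodes, whereas the inflammatory selectins Sele and Selp had 2 and 4 UMIs. MHC and interferon-responsive genes were higher in 16 of 20 measured, with 2 lower and a median log2 ratio of 2.96. In the comparison with non-germ barcodes 14 of 21 were higher and 4 lower. Ly6c1, a surface antigen of mouse capillary endothelium as well as of monocytes, was at 1032 CPM (924 to 1151) in members and 15.6 CPM in stroma-like barcodes, the next class. Isg15, a ubiquitin-like interferon target, was at 183 CPM in members and 33.7 CPM in pericyte-like barcodes, and all of its 58 UMIs lay in 25 cluster members. H2-K1 and B2m, the chains of MHC class I, were at 912 and 549 CPM in members and 1018 and 1112 CPM in macrophage-like barcodes. Ifitm2, an antiviral membrane protein, had the highest level of the list, 1105 CPM (992 to 1227) in members and 807 CPM in macrophage-like barcodes. The MHC class II chain H2-Aa had 3 UMIs, all outside the cluster, and the lowest ratio, 0.245 (0.0505 to 0.717). Cd74 encodes the invariant chain that associates with MHC class II, and H2-Eb1 a class II chain. They were at 28.4 and 25.3 CPM in members and 1515 and 1035 CPM in macrophage-like barcodes. Of their UMIs, 8 of 9 and 5 of 8 lay outside the cluster, and cluster members were at 4.08 and 12.2 CPM.

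Of 23 measured matrix genes, 16 were higher and 1 lower than in all others, with a median log2 ratio of 2.68. Against non-germ barcodes 13 of 22 were higher and 5 lower, with a median of 1.57. Sparc, a collagen-binding secreted protein, had a UMI in all 64 members and up to 135 in 1 of them. It was at 5851 CPM (5587 to 6123) in members and 3011 CPM in stroma-like barcodes. The basement membrane genes Col4a1, Col4a2 and Hspg2 were at 445, 325 and 511 CPM in members. The type IV collagens were higher still in pericyte-like barcodes, at 833 and 530 CPM. Lama4, the laminin chain of vessels, was at 126 CPM in members and 30.1 CPM in Leydig-like barcodes. Mmrn2, an endothelial matrix protein, had the largest ratio, at 199 CPM in members and 0.883 CPM in the others. The lower gene was Col1a1, at 22.1 CPM in members, with 6 of 7 UMIs outside the cluster, and 45.1 CPM in the others. The fibrillar collagens Col1a2 and Col3a1 had 23 and 31 UMIs in members, of which 22 and 30 lay in the 10 members outside the endothelial cluster.

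Of 10 measured genes on a list of secreted factors and binding proteins, 7 were higher in members and 1 lower than in all others. Their median log2 ratio was 3.04. This list is wider than the factors reported from testicular endothelium to act on spermatogonial stem cells. A place on it does not mean such a report. Against non-germ barcodes 6 of 11 were higher and 3 lower, with a median of 1.18. Igfbp7, which binds insulin-like growth factors, was at 4837 CPM (4598 to 5086) in members and 2838 CPM in pericyte-like barcodes. Igfbp4 was at 635 CPM in members and 300 CPM in stroma-like barcodes, and Igfbp3 at 167 CPM in members and 66.5 CPM in Sertoli-like barcodes. Igfbp5 had the largest ratio to all others, 36.7 (18.4 to 67.9), from 13 UMIs, but 12 of these lay outside the cluster and cluster members were at 4.08 CPM. Kitl, the ligand of the spermatogonial receptor KIT, was at 388 CPM (323 to 463) in members and 325 CPM in Sertoli-like barcodes, a ratio of 1.19 (0.974 to 1.45). Gdnf, the main self-renewal factor of these stem cells, had 2 UMIs in members, Fgf2 had 1, and Fgf9 and Lif had none. Igfbp2 was lower in members than in the others, at 75.8 against 192 CPM, with 18 of its 24 UMIs outside the cluster.

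Of 12 measured nuclear and hormone receptor genes, 5 were higher than in all others and none lower. Against non-germ barcodes 1 was higher and 4 were lower, out of 12. Insr, the insulin receptor gene, was at 167 CPM in members and 74.9 CPM in myoid-like barcodes. Esr1 was at 31.6 CPM in members, with all 10 UMIs outside the cluster, and Lhcgr had 39 of 41 UMIs there. Esr2 had no UMI.

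Znhit1, the gene named in the genotype label, was at 18.9 CPM (6.95 to 41.2) in members, from 6 UMIs in 6 barcodes, and 6.94 CPM in the others. The labels do not say which part of the gene was removed, so this 3' count checks nothing about the deletion. The H2A.Z genes H2afz and H2afv were at 815 and 455 CPM in members against 1162 and 552 CPM in the others. Of 19 measured genes of H2A.Z and its deposition machinery, none was higher and 9 were lower than in all others, with a median log2 ratio of -0.93. Against non-germ barcodes, none of 17 was higher and 1 was lower, with a median of -0.13. Znhit1, with 6 UMIs, did not count as measured. Of the measured genes, Actr6, a subunit of the SRCAP complex, had 2 UMIs and the lowest ratio to all others, 0.0996 (0.0121 to 0.360). Anp32e, which removes H2A.Z, had the highest, 0.903 (0.551 to 1.40). Against non-germ barcodes H2afz was at a ratio of 1.12, on the other side of 1. Of its 258 UMIs in members, 82 lay outside the cluster, 54 of them in 1 member of the Leydig-like cluster. Cluster members alone were at 718 CPM of H2afz.

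Of 18 measured cell cycle genes, 10 were lower and 4 higher than in all others, and against non-germ barcodes 5 of 14 were higher and 1 lower. UMIs of 3 mitotic genes came mostly from 1 barcode: a member in the Leydig-like cluster with 4 Cdh5 UMIs and no other rule gene held 10 of 13 Mki67, 10 of 11 Ccnb1 and 17 of 20 Birc5 UMIs. Mki67 was at 41.0 CPM in members and 179 CPM in the others, and 12.2 CPM in the 54 cluster members. Against non-germ barcodes its ratio was 1.24, on the other side of 1. The lowest ratio of the list was that of Top2a, a topoisomerase of dividing cells, at 0.114 (0.0654 to 0.186). The higher 4 were the D cyclins Ccnd1, Ccnd2 and Ccnd3 and the inhibitor Cdkn1b.

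Immediate early and stress genes, which tissue dissociation is known to induce, were higher than in all others in 15 of 18 measured. Against non-germ barcodes 4 of 20 were higher and 3 lower, with a median log2 ratio of 0.38. Fos was at 1276 CPM in members and 1728 CPM in stroma-like barcodes. Hsp90aa1 was lower in members, at 439 CPM against 2713 CPM in the others.

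**Figure D4:**
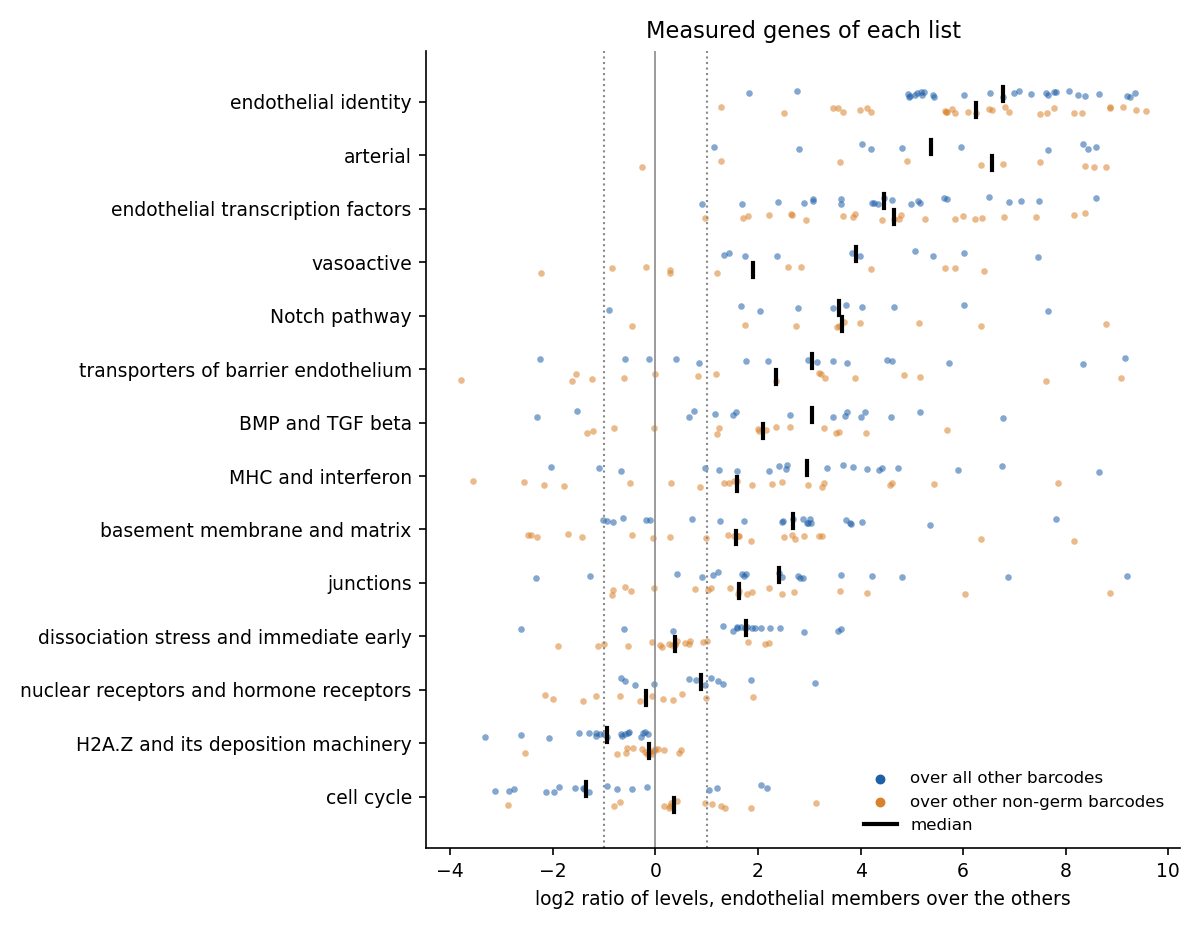
log2 ratio of each measured gene (points) in 14 gene lists, endothelial members over all other barcodes (blue) and over other non-germ barcodes (orange), with the list's median as a bar and dotted lines at 2-fold. The identity list lies highest, with a median of 6.77, and the medians of the H2A.Z and stress lists move to -0.13 and 0.38 against non-germ barcodes.

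The cluster members were not uniform. UMIs of the 6 arterial genes Vegfc, Gja4, Gja5, Sema3g, Bmx and Hey1 were at 0 in 34 of 54 cluster members, 1 or 2 in 11, 3 in 1, and 7 to 27 in 8. The 9 members with at least 3, called the arterial range here, were chosen after these values were seen, and are a range and not a cell type. Their median depth was 6561 UMIs against 3503 in the other 45. Over all genes with 10 UMIs in cluster members, 12.6% of 4447 were at least 2-fold higher in the arterial range and 13.9% at least 2-fold lower. Of 131 list genes that the choice did not use, 27 were higher and 23 lower. These 131 include the 6 rule genes that selected the members, which the 4447 genes leave out. Pecam1 and Tek, at ratios of 2.68 and 2.56, were among the 27, while Cdh5, Egfl7, Kdr and Esam were within 2-fold.

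Edn1 was higher in the arterial range. Its UMIs in these 9 members were 0, 1, 2, 2, 3, 3, 6, 9 and 11, while among the other 45 only 2 held any, with 1 and 2 UMIs. The levels were 705 CPM (497 to 972) in the arterial range and 15.6 CPM (3.21 to 45.5) in the other 45, a ratio of 45.3 (14.3 to 230). The groups overlap only at the values 0, 1 and 2. Mgp, an inhibitor of calcification and of BMPs, was at 2973 CPM (2525 to 3478) in the arterial range and 275 CPM (206 to 360) in the others. The taurine carrier Slc6a6 was at 2173 CPM in the arterial range and 301 CPM in the others. Mecom and Sox17 were at 1277 and 1086 CPM in the arterial range against 286 and 244 CPM. Fbln2, a matrix protein, had 13 UMIs in 5 of the 9 and none in the 45. With a floor of 3 counts over the 45 its ratio was 15.9, and the lower bound of its interval was 11.2. The Notch ligand Jag1 was higher at a ratio of 7.34 (2.96 to 19.8).

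Car4 was lower. No member of the arterial range held a UMI of it, against 70 UMIs in 21 of the other 45. With a floor of 3 counts over the 9 it was 6.36-fold lower, and the bound of its interval was 5.03-fold lower. Rgcc was at 76.2 CPM in the arterial range and 327 CPM in the others, a ratio of 0.233. That ratio was 0.133 with a limit of 7 arterial UMIs and 0.391 with a limit of 2. The lipoprotein receptor Scarb1 was at 76.2 CPM in the arterial range and 431 CPM in the others. Slco1a4 was at 172 CPM in the arterial range and 498 CPM in the others, 2.91-fold lower (1.47 to 6.55). Aplnr, Apln, Col15a1 and Abca1 had no UMI in the arterial range against 23, 29, 28 and 29 UMIs in the others. Not all barrier genes were lower: Abcb1a was at 1144 CPM in the arterial range and 722 CPM in the others.

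**Figure D5:**
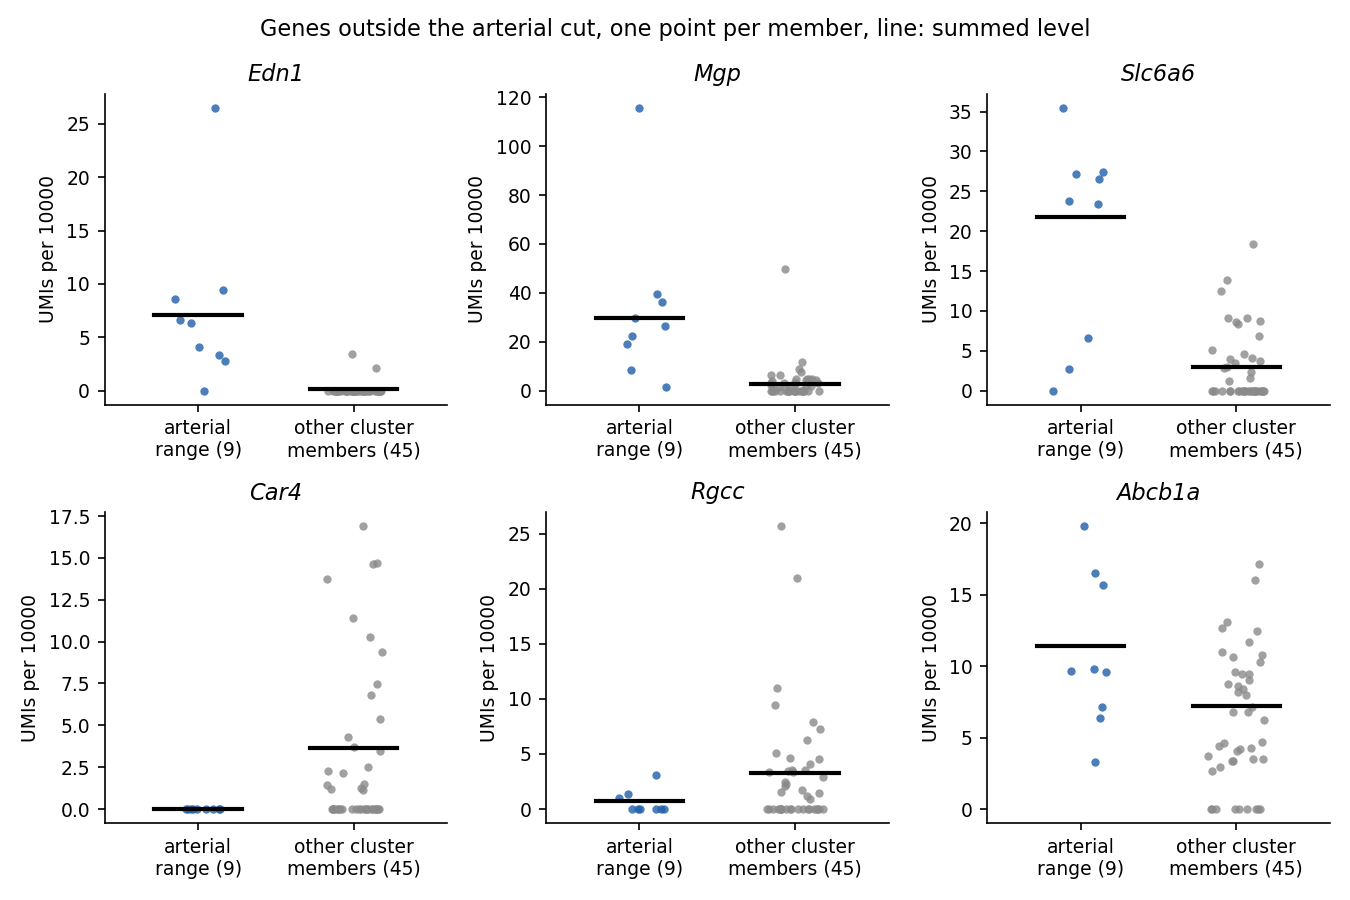
UMIs per 10000 of 6 genes that did not define the arterial range, with 1 point per member, for the 9 members of the arterial range (left) and the other 45 cluster members (right); bars give the summed level of each group. Edn1, Mgp and Slc6a6 lie higher and Car4 and Rgcc lower in the arterial range, while Abcb1a is spread over both.

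Apelin, encoded by Apln, signals through the receptor APLNR. An Apln UMI occurred in 8 cluster members and an Aplnr UMI in 11, with 1 member holding both. The 4 members with at least 3 Apln UMIs held 11, 7, 4 and 3. The members with 11 and 7 also held 17 and 9 of the members' 70 Rgcc UMIs, with 1 and 0 UMIs of Abcb1a, Slco1a4 and Mfsd2a together. The members with 4 and 3 held 1 Rgcc UMI each, with 9 and 1 UMIs of these 3 barrier genes.

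Outside of the lists, the 15 genes with the largest lower bound of the ratio to all others were Srarp, Gimap1, Dipk2b, Ces2e, Mal, Ctla2a, Depp1, Cd93, Tnfrsf19, Zfp366, Syt15, Gimap4, Fam181b, C130074G19Rik and Tnfsf10. Ctla2a was at 688 CPM in members, from 218 UMIs in 47 of them, and 2.63 CPM in the others. Mal, a proteolipid of membrane rafts, was at 527 CPM in members, in 42 of 64, and 1.27 CPM in the others, a ratio of 414 (309 to 560). Cd93, a known endothelial lectin receptor, was at 455 CPM in members and 106 CPM in pericyte-like barcodes. Tnfrsf19, a receptor of the tumour necrosis factor family known from brain endothelium, was at 170 CPM in members and 0.588 CPM in the others. The 10 genes with the smallest upper bound were all highest in germ-marker barcodes, among them Rbmxl2 and Tex15, each at 18.9 CPM in members against 414 and 368 CPM in the others. Taf7l2, Syngr4, Zfp541 and Elavl2 had no UMI in members.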

How the data were processed

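UMI counts per gene and barcode were deposited by the authors as a matrix. Cell Ranger 7.1.0, STAR and the mm10 build are named in the submitters' processing notes, and the labels' protocols name a droplet 3' kit. The matrix held 15306 barcodes, and 3592 of them missed the minimum of 1000 UMIs while 4152 exceeded the mitochondrial limit of 10%. Clustering (scanpy 1.11.5, Leiden) left out all list genes, and classes were named by markers; 15 of 25 clusters stayed unnamed. Scrublet doublet calls were recorded and not used to remove barcodes. Counts were summed per class, with exact Poisson intervals for levels, exact conditional binomial intervals for ratios and Clopper-Pearson intervals for shares, at 95% (scipy 1.17.1). A class at 0 was set to a floor of 3 counts over that class for a ratio. On simulated counts of 6034 genes with 200 changed, 95.6% of intervals held the true ratio. These were Poisson counts, as the intervals assume, so this checks the computation and not the spread between barcodes. Named genes are the fixed lists, plus outside them the 15 highest by lower bound and the 10 lowest by upper bound. The members and lists were chosen with earlier results of these data known.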

Additional observations from a re-analysis of the deposited data

How the results depend on the processing

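Of 153 recomputed main values, 144 stayed within their limits, 9 moved and 0 reversed, and of 578 single-gene values 421 stayed, 155 moved and 2 reversed. Some of these could not move, so the counts overstate stability. A changed gene minimum leaves every single-gene ratio as it was. The member count stays at 64 where only the weighting, scaling, thinning, gene minimum or comparison group changes. Ratios to all others ran from 311 to 978 for Cldn5, 359 to 1016 for Abcb1a and 159 to 529 for Slco1a4, wider than their counting intervals. The highest value of each came from setting all 71 barcodes of the endothelial cluster against the rest. In the main comparison the 17 cluster barcodes that are no members count among the others. Several alternatives, among them the restriction to cluster barcodes, were chosen after seeing the data. Keeping the members below the median share of other cell types' markers leaves 32 by construction, which is 1 of the 9. Genes at least 2-fold higher numbered 864 with a minimum of 20 UMIs and 384 after thinning to 1000 UMIs, against 1395. Genes at least 2-fold lower numbered 970 against non-germ barcodes, 1273 with the minimum of 20 and 401 after thinning, against 2122. The H2A.Z median was -0.13 against non-germ barcodes, and the stress median 0.38 there and 1.41 with equal weight per barcode. Ratios of H2afz and Mki67 turned to 1.12 and 1.24 against non-germ barcodes. The cause was not tested in any of these. The identity median stayed between 6.25 and 7.12 and the barrier transporter median between 1.99 and 3.79. Scaling by the median ratio takes out the shift of -0.35 in log2 over all genes. With limits of 2 and 7 arterial UMIs the arterial range held 10 and 8 members, its Edn1 ratio was 41.4 and 53.5, and its Rgcc ratio 0.391 and 0.133. With all 64 members in place of the 54 the Edn1 ratio was 62.1. No paired analysis was possible because counts of 1 library were used.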

Other observations

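Of the members outside the endothelial cluster, 3 met the rule by Kdr, with 8, 7 and 5 of the 108 Kdr UMIs, and the only other rule gene in them was Egfl7, with 1 UMI. They lay in the shallow unnamed cluster and held 22036 UMIs together. That cluster stayed unnamed for its median depth of 1243 UMIs. Its mean log2 ratio of Sertoli markers to all other barcodes was 1.79, and the next marker list was at -0.05. Rmst, Ecrg4 and Bmpr1b led its genes. None of the 3 members held a UMI of Cldn5, Pecam1, Cdh5, Esam, Tek, Tie1 or Flt1. Together they held 34 UMIs of Ecrg4, 28 of Bmpr1b, 22 of Rmst, 16 of Podxl, 13 each of Pax8, BC048679 and Slc34a2, and 9 of Sox17. These genes were chosen after their values were seen.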
